A study of Mus musculus with 4 samples.

Results

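Collagens are extracellular matrix proteins whose chains wind around each other into a triple helix, and each chain has its own gene. The collagen chain genes described here are those whose symbol in the array's annotation is Col, a number, the letter a and a second number. The rule found 42 such genes among the 18193 genes of the array, measured by 82 probe sets, of which 27 genes had more than 1. They were grouped by textbook class into 11 fibrillar, 9 network, 9 FACIT (fibril-associated with interrupted helices), 5 beaded filament, 4 transmembrane and 2 multiplexin genes, with Col7a1 and Col26a1 outside these classes.

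MC3T3-E1, the cell studied, is an established preosteoblast line from the calvaria of newborn C57BL/6 mice. Total RNA was measured on 4 Affymetrix arrays, 1 for each group, so no group has a replicate. The groups were cells kept 6 days in osteogenic medium, 6 days in normal medium, 3 days in osteogenic medium and 3 days in normal medium. Normal medium was MEM α with 10% fetal bovine serum, and osteogenic medium held in addition ascorbic acid 2-phosphate at 150 µM and beta-glycerophosphate at 10 mM, so the supplements cannot be told apart. The study asked which genes accompany osteogenic differentiation. A single cell line in monolayer culture was the model, and all 4 groups share it.

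Fibrillar collagens form the banded fibrils of connective tissue, and type I collagen, a heterotrimer of Col1a1 and Col1a2 chains, makes up most of the organic matrix of bone. Network collagens build basement membranes and hexagonal lattices, FACIT collagens sit on fibril surfaces, and multiplexins lie in basement membrane zones. Ascorbic acid keeps the prolyl and lysyl hydroxylases active that modify collagen chains in the endoplasmic reticulum, and cultured osteoblasts need it to deposit a stable collagen matrix.

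Values are scaled intensities on a linear scale. A floor at an intensity of 57.8, the 50th percentile over all arrays, stood in for detection calls, and a gene was measured in a comparison if at least 1 of its 2 arrays lay above it. Log2 differences are osteogenic minus normal medium or day 6 minus day 3, and a gene is counted as "higher" or "lower" from 2-fold on, a log2 difference of 1. No test exists for a difference between 2 single arrays. The error of a single probe set, estimated from genes with several, was 0.29 at day 6 and 0.30 at day 3 on the log2 scale for the medium difference, and it covers probe error and not culture. Intensities of different genes come from different probes and are not set against each other. In bulk RNA, fewer cells of a type and less RNA per cell cannot be told apart.

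Of 6 osteoblast markers on the array, 5 were above the floor on all arrays, and Alpl, Ibsp, Dmp1 and Phex were higher in osteogenic medium on both days. Phex was at the floor in normal medium on both days, so its differences are bounds. Sp7 differed by 0.38 at day 6 and 0.69 at day 3 on the log2 scale, short of 2-fold, and Sparc by 0.054 and -0.17. Markers of adipocytes (5 of 6), endothelial cells (6 of 7) and leukocytes or macrophages (5 of 6) were at the floor on all 4 arrays. Of 6 smooth muscle markers 1, Myh11, was at the floor throughout, and the summed intensity of the list ran from 48136 to 65675 over the arrays, mostly Acta2 and Tagln. Other members of that list passed 2-fold between media: at day 6 Des was at least 2.84-fold higher and Lmod1 2.86-fold lower, and at day 3 Cnn1 was 3.96-fold higher. Cnn1 differed the other way at day 6, by -0.91 on the log2 scale. The part of these smooth muscle markers in the collagen differences was not tested. The osteogenic day 6 array differed from the others in a control, with 746 at the 5′ end of 18S ribosomal RNA against 5202 to 9162, and its part in the day 6 values below was not tested. Ratios of 3′ to 5′ signal were alike on the arrays, from 0.756 to 0.769 for Gapdh and from 1.17 to 1.25 for beta-actin. The day 3 comparison does not use the osteogenic day 6 array.

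Most collagen classes had some members above the floor, and the share differed by class. Of the 42 genes, 24 (57.1%) were above the floor on all 4 arrays, 7 on some and 11 on none, against 56.3% of all genes above it on all 4. All 11 fibrillar genes were above the floor on at least 1 array, and Col11a2 alone among them not on all. The network genes Col4a1, Col4a2, Col4a5, Col4a6, Col8a1 and Col8a2 were above it on all arrays, whereas Col4a3 and Col4a4, chains of the specialised basement membranes of kidney and lung, and Col10a1, the collagen of hypertrophic cartilage, were at the floor throughout. Among FACIT genes Col12a1, Col16a1 and Col22a1 were above it on all arrays, and Col9a2, Col9a3, Col19a1 and Col20a1 on none. The beaded filament genes Col6a1, Col6a2 and Col6a3, which together form type VI collagen, were above it throughout and Col6a5 was not. None of the 4 transmembrane genes was above the floor on all arrays: Col13a1 and Col25a1 were at the floor on each, Col17a1 was above it on 1 and Col23a1 on 2. Both multiplexin genes, Col15a1 and Col18a1, were above the floor throughout, and Col26a1 on no array.

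At day 6, Col11a2, Col2a1, Col18a1 and Col24a1 were higher in osteogenic than in normal medium and Col8a1 and Col27a1 were lower. That is 4 higher (12.9%) and 2 lower (6.45%) of 31 measured collagen genes, where 4.18% of 11901 measured genes were higher and 2.78% lower (6.96% in either direction). At day 3, Col11a2, Col2a1 and Col18a1 were higher (10.0% of 30) and Col16a1 was lower (3.33%), where 1.99% of 11861 genes were higher and 1.59% lower (3.57% in either direction). The same 3 genes were thus higher on both days, and 0 were lower on both. The share of all genes higher or lower on both days was not counted, so these overlaps have no background beside them. Col16a1, with log2 differences of -0.91 at day 6 and -1.06 at day 3, fell just short of lower on both. With so few genes each share rests on single genes and single arrays.

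**Figure D1:**
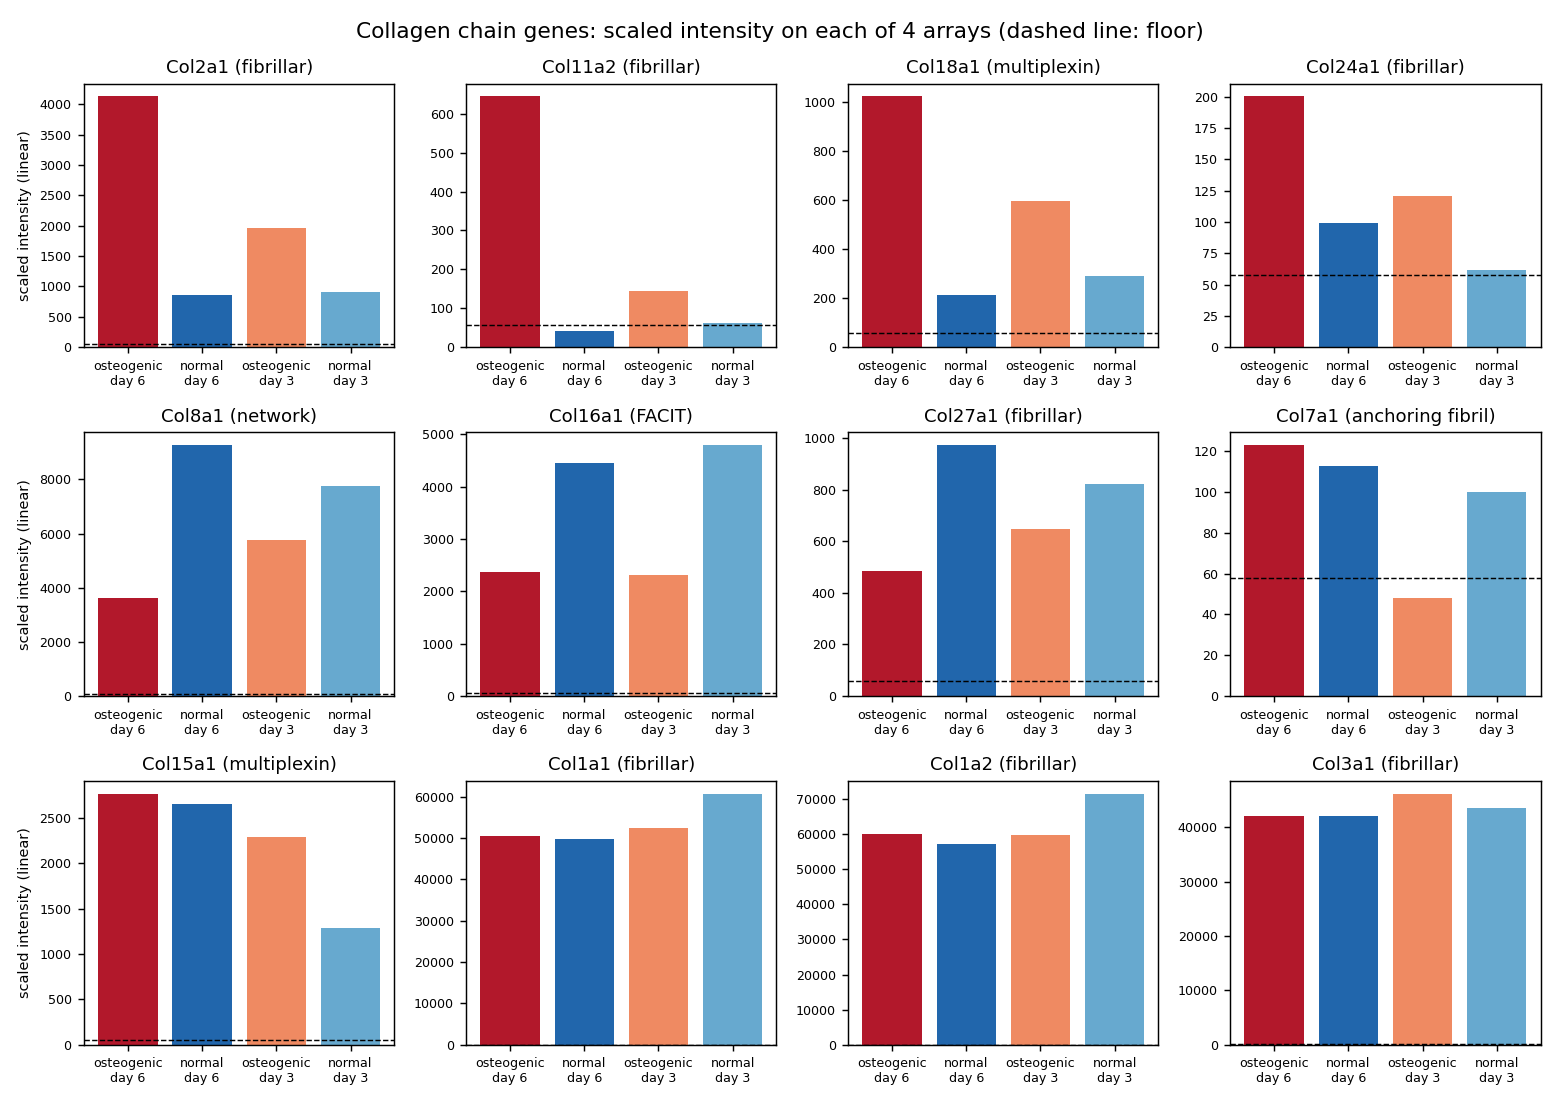
Scaled intensity (linear axis from 0, own scale in each panel) of 12 collagen genes on each of the 4 arrays, with the class in the panel title; a bar is 1 array, and the dashed line is the floor at 57.8. Col2a1, Col11a2, Col18a1 and Col24a1 have their tallest bar in osteogenic medium at day 6, Col8a1 and Col27a1 their shortest, and Col3a1 stays between 42180 and 46177.

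Promoters are shown for members past 2-fold between media, so that those on either side can be compared by sequence. They are Col11a2 and both annotated starts of Col18a1, higher in osteogenic medium on both days, Col24a1, higher at day 6, Col8a1 and Col27a1, lower at day 6, and Col16a1, lower at day 3. Col2a1, also higher on both days, had no matched window. Each is the 250 bases before an annotated start, 5′ to 3′ in the direction of the gene, from RefSeq on GRCm38.p6. Capitals mark matches on either strand to 4 motifs, and no matches overlap in these windows. As background, CCAAT (reverse complement ATTGG) is bound by the factor NF-Y, TATAAA (reverse complement TTTATA) by TATA-binding protein, GGGCGG (reverse complement CCGCCC) by Sp1 family factors and TGTGGT (reverse complement ACCACA) by RUNX factors.
Col11a2, chr17:34038888-34039137, plus strand: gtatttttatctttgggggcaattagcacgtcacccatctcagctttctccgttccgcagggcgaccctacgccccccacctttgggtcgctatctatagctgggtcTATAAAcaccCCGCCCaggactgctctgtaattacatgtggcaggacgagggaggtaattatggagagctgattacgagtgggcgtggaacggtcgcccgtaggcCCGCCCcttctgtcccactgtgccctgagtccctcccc
Col18a1, first start, chr10:77166531-77166780, minus strand: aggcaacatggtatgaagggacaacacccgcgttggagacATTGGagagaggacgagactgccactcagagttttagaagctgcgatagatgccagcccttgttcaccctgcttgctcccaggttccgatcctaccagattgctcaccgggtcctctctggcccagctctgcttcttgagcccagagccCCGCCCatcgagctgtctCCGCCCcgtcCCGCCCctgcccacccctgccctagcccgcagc
Col18a1, second start, chr10:77113706-77113955, minus strand: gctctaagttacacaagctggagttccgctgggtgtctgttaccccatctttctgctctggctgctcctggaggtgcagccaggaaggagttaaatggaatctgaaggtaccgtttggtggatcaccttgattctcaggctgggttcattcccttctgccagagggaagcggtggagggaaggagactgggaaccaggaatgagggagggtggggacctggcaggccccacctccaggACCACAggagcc
Col24a1, chr3:145292222-145292471, plus strand: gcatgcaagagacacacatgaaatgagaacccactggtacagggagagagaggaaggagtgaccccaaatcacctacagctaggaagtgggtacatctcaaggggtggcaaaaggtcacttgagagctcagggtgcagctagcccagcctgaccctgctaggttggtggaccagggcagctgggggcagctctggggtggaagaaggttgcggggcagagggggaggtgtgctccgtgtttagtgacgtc
Col8a1, chr16:57754738-57754987, minus strand: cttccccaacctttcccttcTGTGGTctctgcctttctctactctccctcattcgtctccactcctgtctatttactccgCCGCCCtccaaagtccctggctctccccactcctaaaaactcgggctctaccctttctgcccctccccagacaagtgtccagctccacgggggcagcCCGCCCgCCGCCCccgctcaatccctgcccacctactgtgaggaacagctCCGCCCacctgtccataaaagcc
Col27a1, chr4:63215162-63215411, plus strand: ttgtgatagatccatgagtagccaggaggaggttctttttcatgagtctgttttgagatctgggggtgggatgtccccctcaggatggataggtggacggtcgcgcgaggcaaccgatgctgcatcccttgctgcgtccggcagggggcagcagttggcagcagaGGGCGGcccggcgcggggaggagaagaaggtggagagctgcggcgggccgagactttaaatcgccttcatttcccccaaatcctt
Col16a1, chr4:130047590-130047839, plus strand: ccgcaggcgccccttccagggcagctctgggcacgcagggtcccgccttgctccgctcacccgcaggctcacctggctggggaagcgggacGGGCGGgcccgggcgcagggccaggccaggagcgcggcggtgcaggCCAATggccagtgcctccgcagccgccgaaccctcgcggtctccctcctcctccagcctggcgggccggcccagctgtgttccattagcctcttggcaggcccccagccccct

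RefSeq promoters were matched for 33 of the 42 genes, with 36 starts. GGGCGG stood in 21 of the 36 windows (58.3%) and in 32.7% of 32851 promoter windows of the same length. CCAAT stood in 13 (36.1%, against 33.8%), TATAAA in 5 (13.9%, against 12.4%) and TGTGGT in 3 (8.33%, against 14.0%). The 3 windows with TGTGGT belong to Col8a1, to the second start of Col18a1 and to Col17a1, so it stands both in a gene that was higher and in one that was lower. The median number of CG pairs per 250 bases was 10.0 over the 21 windows of genes above the floor on all arrays. It was 5.0 over the 7 of genes above the floor on some arrays and 9.5 over the 8 of genes at the floor on all. Over all promoters it was 6.0. A match is a match of letters only, and these arrays do not tell which start of Col18a1 was used.

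Among fibrillar genes, Col2a1 encodes the chain of type II collagen, the main collagen of cartilage. Its intensity was 4134 in osteogenic against 854 in normal medium at day 6, and 1967 in osteogenic against 903 in normal medium at day 3. Both osteogenic arrays were thus above both normal medium arrays, and the osteogenic array of day 6 was the highest. The difference was 4.84-fold at day 6 and 2.18-fold at day 3, from 1 probe set. In osteogenic medium day 6 was 2.10-fold above day 3, while the normal medium arrays differed by -0.082 on the log2 scale.

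Col11a2 encodes a chain of type XI collagen, a minor fibrillar collagen that nucleates thin fibrils. It had 645 in osteogenic against 42.3 in normal medium at day 6, and 144 in osteogenic against 61.1 in normal medium at day 3. The normal medium array of day 6 lay below the floor and that of day 3 just above it, so the 2 normal medium values are dim. Col11a2 was at least 11.2-fold higher at day 6 and 2.35-fold higher at day 3, from 1 probe set. The day 3 log2 difference of 1.24 was 0.27 once the floor was set at percentile 60, and 0.80 with a pseudocount of 50, so this call depends on how dim signal is treated. At day 6 it ran from 2.43 to 3.93 over the alternatives.

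Type XI collagen joins the Col11a1 and Col11a2 chains with a further chain from Col2a1, and Col11a1 did not share the difference of the other two. Its intensities were 1429 in osteogenic against 1616 in normal medium at day 6, and 1040 in osteogenic against 1401 in normal medium at day 3. The log2 differences were -0.18 at day 6 and -0.43 at day 3, and -0.45 and -0.56 by its second probe set. Both osteogenic values lay below the normal medium value of the same day, opposite to Col2a1 and Col11a2.

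Markers of chondrocytes were read beside these cartilage collagens. Of 13 on the array, 4 were above the floor on all arrays, and Acan, Matn1, Hapln1 and Comp were at the floor on each. The summed intensity of the list was 8522 in osteogenic and 10200 in normal medium at day 6. At day 3 it was 8265 in osteogenic and 9921 in normal medium. The sum depends on the brightest member, Matn4, and does not stand for the list as a whole. Matn4 had 3873 in osteogenic and 6698 in normal medium at day 6, and 3441 and 5959 at day 3. Cnmd, which encodes the cartilage protein chondromodulin, was 2.51-fold and 2.56-fold higher at day 6 and day 3, and Ucma was at least 2.04-fold and 2.62-fold lower, at the floor in osteogenic medium on both days. Sox6 differed by -0.63 at day 6 and -0.59 at day 3, Matn4 by -0.79 on both days, and Sox5 by -0.32 and -0.79 as bounds. Of 8 markers measured at day 6, 6 lay below 0 and 2 above. Of 7 measured at day 3, 4 lay below 0 and 3 above. The medians were -0.36 and -0.59. The part of these markers in the collagen differences was not tested. Sox9, the transcription factor that drives Col2a1 and Col11a2 in cartilage, differed by 0.22 at day 6 and 0.060 at day 3 on the log2 scale.

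Col24a1, a fibrillar collagen gene expressed in developing bone, had 201 in osteogenic against 98.9 in normal medium at day 6, and 121 in osteogenic against 61.8 in normal medium at day 3. Its differences were similar on both days, 2.03-fold at day 6 and 1.96-fold at day 3, which places them on either side of the 2-fold line. Each day 6 value was also above its day 3 value, by 0.73 in osteogenic and 0.68 in normal medium on the log2 scale. The gene is dim, and it passed 2-fold at day 6 in 6 of 10 alternatives, with 0.75 as the lowest value.

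Col27a1, a fibrillar gene of cartilage and other tissues, went the other way at day 6. Its intensity was 484 in osteogenic against 973 in normal medium at day 6, and 646 in osteogenic against 820 in normal medium at day 3. The 2 osteogenic values were the 2 lowest of the 4, with a log2 difference of -1.01 at day 6 and -0.34 at day 3. The second probe set gave -0.89 and 0.051, so only its day 6 difference had the same sign.

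The major fibrillar collagens of bone and skin had log2 differences between media from -0.26 to 0.082 by their brightest probe sets. Col1a1 had 50551 in osteogenic against 49649 in normal medium at day 6, and 52441 in osteogenic against 60664 in normal medium at day 3. Col1a2 had 59942 in osteogenic against 57203 in normal medium at day 6, and 59633 in osteogenic against 71450 in normal medium at day 3. In both genes the normal medium array of day 3 was the highest and the other arrays lay close together. These values lie near the top of the scale, where the brightest intensity deposited per array was 67044 to 81516, and compression of differences there was not tested. The second probe set of Col1a1 was dimmer, with 17331 in osteogenic against 18771 in normal medium at day 6 and 17841 in osteogenic against 21254 in normal medium at day 3, and gave log2 differences of -0.12 at day 6 and -0.25 at day 3, beside 0.026 and -0.21 for the bright one.

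Col3a1, the chain of type III collagen of soft connective tissue, had 42191 in osteogenic against 42180 in normal medium at day 6, and 46177 in osteogenic against 43633 in normal medium at day 3. The 4 values of its brightest probe set lay within a narrow range, although a second, dimmer probe set gave -0.30 at day 6 and 0.55 at day 3, both larger than the estimated probe error. Type V collagen regulates the diameter of type I fibrils, and its chains differed among themselves. Col5a1 had 10531 in osteogenic against 10433 in normal medium at day 6 but 7169 in osteogenic against 12654 in normal medium at day 3, a log2 difference of -0.82. Its other probe sets gave -0.28 and -0.54 at day 3, the same sign with smaller sizes, and 0.45 and 0.37 at day 6, beside 0.013. Col5a2 differed by 0.18 at day 6 and -0.041 at day 3, and Col5a3 by -0.15 and -0.18.

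**Figure D2:**
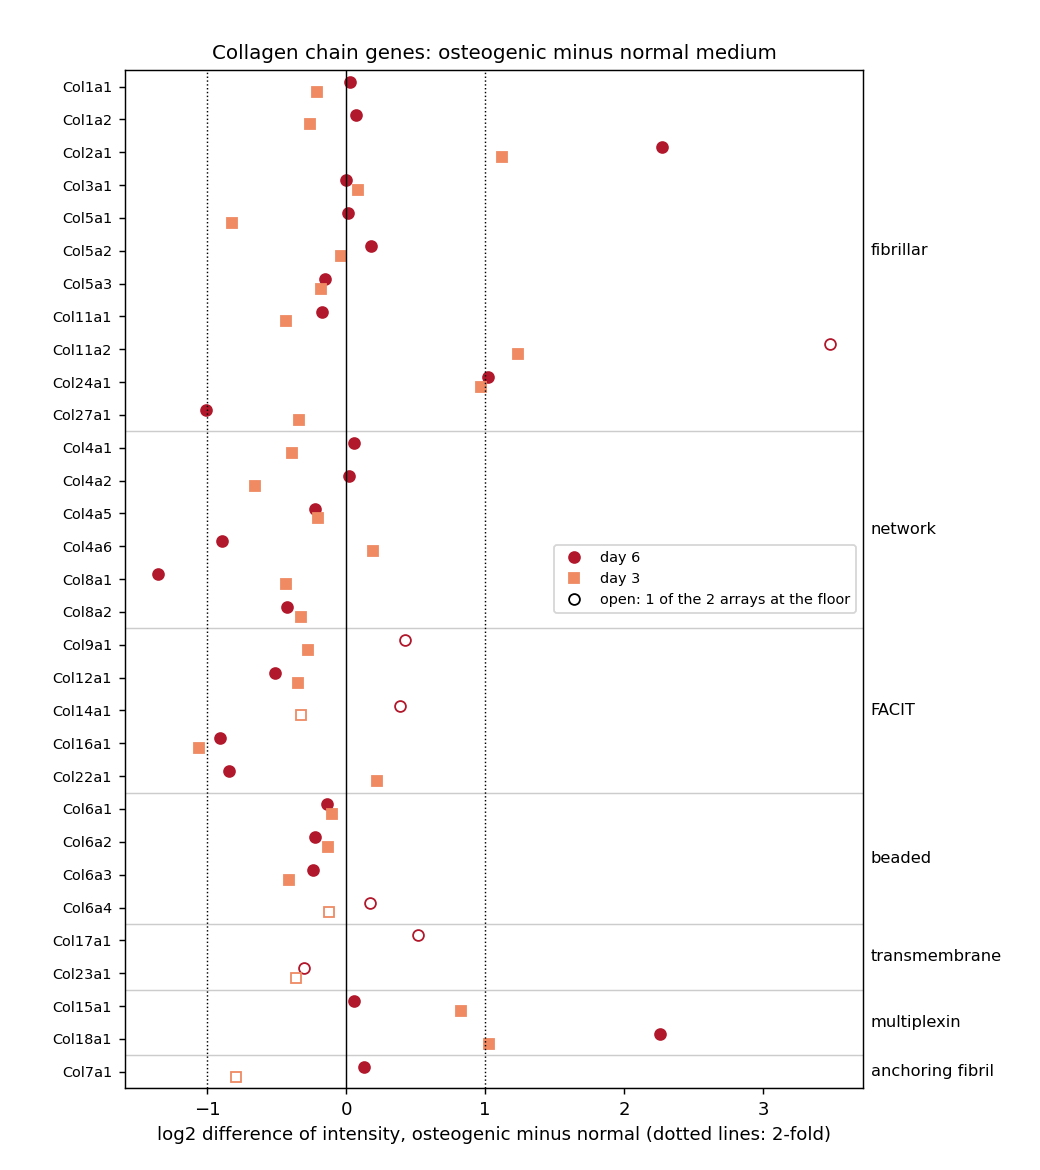
Log2 difference of intensity, osteogenic minus normal medium, at day 6 (circles) and day 3 (squares) for the 31 collagen genes above the floor on at least 1 array, grouped by class; dotted lines mark 2-fold and open symbols are bounds with 1 array at the floor. Col11a2, Col2a1 and Col18a1 lie right of the upper line on both days, and most day 3 squares of the other genes lie left of 0.

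In the network class, Col8a1 was lower in osteogenic medium at day 6. It encodes a chain of type VIII collagen, a short-chain collagen of the subendothelium and of Descemet's membrane in the eye. Its intensity was 3631 in osteogenic against 9273 in normal medium at day 6, and 5753 in osteogenic against 7752 in normal medium at day 3. Both osteogenic values were below both normal medium values. The gene was 2.55-fold lower at day 6, and the 3 probe sets gave log2 differences of -1.35, -1.30 and -1.42 at day 6 and -0.43, -0.75 and -0.38 at day 3. Its partner Col8a2 had the same sign with smaller sizes, -0.43 at day 6 and -0.33 at day 3.

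Type IV collagen chains, the scaffold of basement membranes, are encoded by head-to-head gene pairs. Col4a1 and Col4a2, which form the common heterotrimer, lie on opposite strands with annotated starts 21 bases apart, so that their 5′ ends overlap, and the starts of Col4a5 and Col4a6 are 1343 bases apart. Col4a1 had 9135 in osteogenic against 8769 in normal medium at day 6, and 5635 in osteogenic against 7380 in normal medium at day 3. Col4a2 had 6802 in osteogenic against 6701 in normal medium at day 6, and 3860 in osteogenic against 6077 in normal medium at day 3. In both genes the osteogenic day 3 array was the lowest, and the log2 differences between media were 0.059 and 0.022 at day 6 and -0.39 and -0.65 at day 3.

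Col4a5 and Col4a6 were less alike. Col4a5 had 1970 in osteogenic against 2304 in normal medium at day 6 and 1579 in osteogenic against 1819 in normal medium at day 3, log2 differences of -0.23 and -0.20. Col4a6 had 359 in osteogenic against 669 in normal medium at day 6, and 708 in osteogenic against 620 in normal medium at day 3. Its osteogenic day 6 array alone was low, and the medium difference changed by -1.09 on the log2 scale between days, past 2-fold. Among the 7 pairs of collagen genes that are next to each other among protein-coding genes, Col3a1 with Col5a2 and Col6a1 with Col6a2 are the other 2 in which both genes were above the floor on all arrays.

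Of 5 measured FACIT genes, 3 had a medium difference below 0 at day 6 and 4 at day 3. Col16a1, whose protein associates with fibrillin microfibrils and collagen fibrils, had 2373 in osteogenic against 4456 in normal medium at day 6, and 2303 in osteogenic against 4793 in normal medium at day 3. The osteogenic values were near each other and the normal medium values near each other, with log2 differences of -0.91 and -1.06. It was therefore past 2-fold at day 3 alone, and its difference between media changed by 0.15 between days. Col16a1 had 1 probe set.

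Col12a1, which bridges type I fibrils, had 7604 in osteogenic against 10827 in normal medium at day 6, and 7997 in osteogenic against 10185 in normal medium at day 3. Both osteogenic arrays lay below both normal medium arrays by its brightest probe set, with -0.51 and -0.35, and the next brightest gave -1.12 and -0.45. The other probe sets of the gene were at the floor on all arrays. Col22a1, a collagen of tissue junctions, was dim, with 68.3 in osteogenic against 122 in normal medium at day 6 and 113 in osteogenic against 96.7 in normal medium at day 3. Its difference changed by -1.06 between days, but by -0.033 when the floor was at percentile 60. Col9a1 and Col14a1 had at most 92.2 and 75.5 on any array.

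The type VI chains assemble into beaded microfilaments around cells. Col6a1 had 18402 in osteogenic against 20224 in normal medium at day 6, and 20809 in osteogenic against 22339 in normal medium at day 3. The differences of Col6a1, Col6a2 and Col6a3 were -0.14, -0.22 and -0.24 at day 6 and -0.10, -0.13 and -0.41 at day 3. All 6 were below 0, and that of Col6a3 at day 3 was larger than the probe error of 0.30 over all genes. The second probe set of Col6a2 gave -0.34 at day 6, larger than the 0.29 of that day, and -0.14 at day 3.

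Multiplexins carry heparan or chondroitin sulfate chains, and cleavage of the Col18a1 product releases endostatin, an inhibitor of blood vessel growth. Col18a1 had 1022 in osteogenic against 213 in normal medium at day 6, and 594 in osteogenic against 291 in normal medium at day 3. Both osteogenic arrays were above both normal medium arrays, with 4.79-fold at day 6 and 2.04-fold at day 3. The second probe set gave log2 differences of 1.90 at day 6 and 1.24 at day 3, beside 2.26 and 1.03. With a pseudocount of 50 the day 3 value was 0.92. The medium difference was greater at day 6 than at day 3 by 1.23 on the log2 scale, and by 0.66 by the second probe set.

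Col18a1 is also a basement membrane gene of epithelia, and epithelial markers were read beside it. Of 8 on the array, 3 were above the floor on all arrays, and Krt5 and Krt18 were at the floor on each. The summed intensity of the list was 1177 in osteogenic and 349 in normal medium at day 6, and 895 in osteogenic and 560 in normal medium at day 3. The sum depends on its brightest members and does not stand for the list as a whole. In osteogenic medium at day 6 these were Cdh1 (506) and Krt14 (282). Cdh1, the epithelial cadherin gene, was 5.69-fold and 3.05-fold higher at day 6 and day 3, and Krt14, a basal keratin gene, 4.31-fold and 2.72-fold. Itgb4 was at least 2.14-fold higher at day 6. Epcam differed by 0.71 at day 6 and -0.66 at day 3 on the log2 scale, and at day 3 Krt8 by -0.014 and Lamb3 by 0.52 as a bound. Of the measured markers 4 of 4 lay above 0 at day 6 and 3 of 5 at day 3. Their part in the Col18a1 difference was not tested.

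Col15a1, the other multiplexin gene, had 2766 in osteogenic against 2656 in normal medium at day 6, and 2291 in osteogenic against 1291 in normal medium at day 3. Only the normal medium array of day 3 was low. The medium difference was 0.83 at day 3 and 0.059 at day 6. Col7a1, the gene of the anchoring fibrils that hold epithelium to dermis, had 123 in osteogenic against 113 in normal medium at day 6 and 48.0 in osteogenic against 100.1 in normal medium at day 3, dim on all arrays and below the floor in osteogenic medium at day 3.

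**Figure D3:**
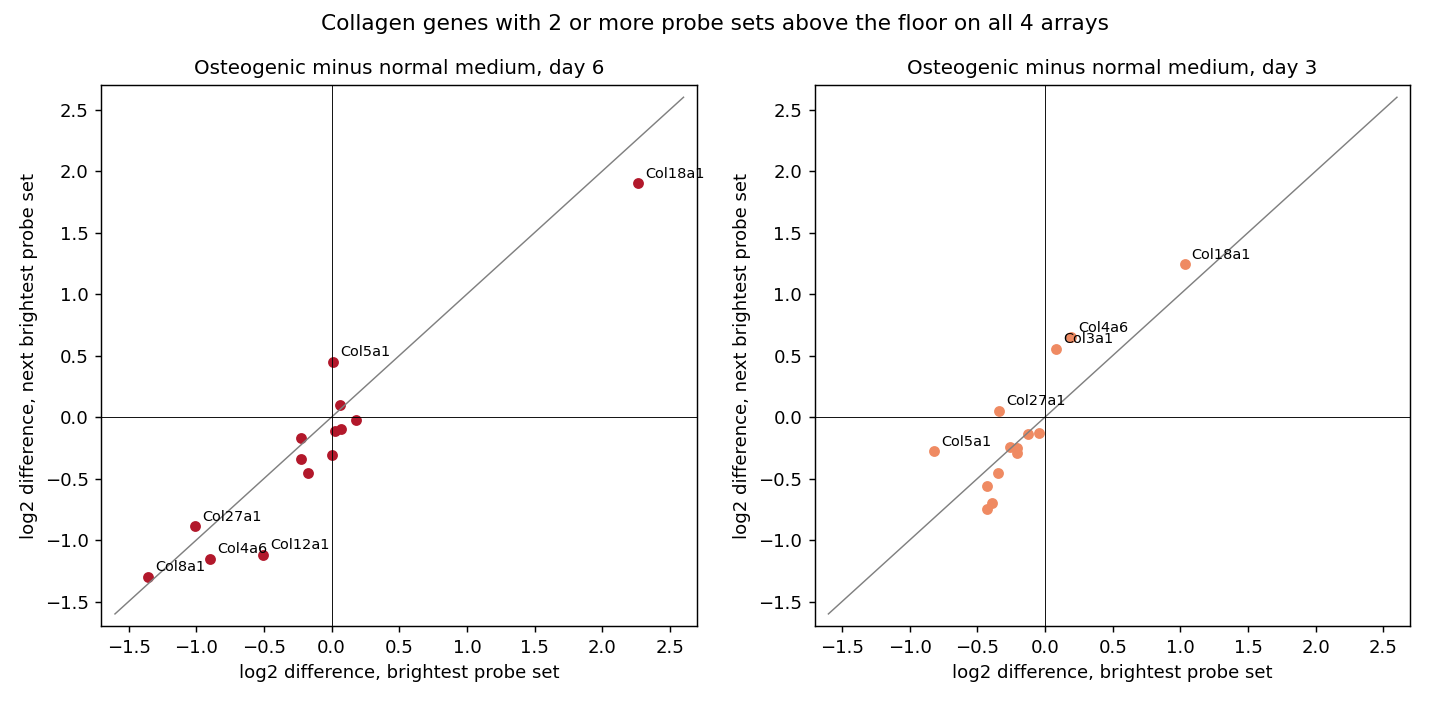
Log2 difference, osteogenic minus normal medium, by the brightest probe set (x) and the next brightest (y) of the 14 collagen genes with 2 or more probe sets above the floor on all 4 arrays, at day 6 (left) and day 3 (right); each point is a gene and the grey line is equality. Signs were shared by 10 of 14 genes at day 6 and 13 of 14 at day 3. At day 6 Col8a1 lies near the line, while Col18a1 (2.26 and 1.90) and Col12a1 (-0.51 and -1.12) lie further off it.

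Repeat probe sets of the same gene gave a check of the differences within an array pair. Over 14 collagen genes with a second measured probe set, the error of a single probe set was 0.18 at day 6 and 0.21 at day 3 on the log2 scale, below the 0.29 and 0.30 over 4967 and 5020 genes of the whole array. The genes whose signs differed at day 6 had brightest probe sets within 0.18 of 0.

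As a class summary, the median medium difference of the collagen genes was 0.013 at day 6, beside 0.013 over all measured genes, and -0.24 at day 3, beside 0.0092. At day 3, 22 of 30 collagen genes (73.3%) lay below 0, against 49.0% of all genes. At day 6 this was 14 of 31 (45.2%), against 48.8%. Fibrillar medians were 0.026 at day 6 and -0.18 at day 3, network medians -0.33 and -0.36, FACIT medians -0.51 and -0.32, and beaded filament medians -0.18 and -0.13. Over the alternatives the collagen median ran from -0.14 to 0.059 at day 6, so its sign depends on the processing, and from -0.26 to -0.13 at day 3. The 10 genes above 0 at day 6 and below 0 at day 3 included Col1a1, Col1a2, Col4a1, Col4a2, Col5a1 and Col5a2. Day 6 values of these named genes, 0.013 to 0.18, were below the probe error of 0.29, so they do not show a change of sign. Next brightest probe sets lay below 0 at day 6 for Col1a1 (-0.12), Col1a2 (-0.097) and Col5a2 (-0.023). For Col4a1 (0.095) and Col5a1 (0.45) they lay above it. How many of all genes had this pattern was not counted.

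An additive model of medium and day across the 4 arrays leaves 1 residual degree of freedom and is the one test the design allows. By limma with Benjamini-Hochberg adjustment, 0 of 12503 genes (0%) had an adjusted p under 0.05 for the medium, while 1737 had an unadjusted p under 0.05, or 848 with each gene's own variance. Among collagen genes 7 of 31 had an unadjusted p under 0.05, or 3 with each gene's own variance. With its own variance in the same fit, unadjusted p was 0.21 for Col2a1, 0.23 for Col18a1, 0.28 for Col11a2 and 0.30 for Col8a1. The SE values below are from limma, which pools variance over genes. The lowest limma adjusted p of a collagen gene was 0.217, for Col24a1. Its medium effect over both days was 0.997 ± 0.17 (SE, log2), that of Col16a1 -0.98 ± 0.17, of Col2a1 1.70 ± 0.32, of Col18a1 1.65 ± 0.33, of Col11a2 2.36 ± 0.55 and of Col8a1 -0.89 ± 0.27. For Col24a1 and Col16a1 the medium difference was nearly the same on both days, which is what makes this residual small, whereas those of Col2a1, Col11a2 and, by its brightest probe set, Col18a1 were over 2-fold greater at day 6 than at day 3.

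Between days, 3 of 30 collagen genes were higher at day 6 than at day 3 in osteogenic medium, Col11a2, Col2a1 and Col7a1, and 0 were lower. That is 10.0% higher, where 3.7% of 11947 genes were higher and 2.62% lower (6.32% in either direction). Col11a2 was 4.48-fold higher at day 6. Col7a1 was at least 2.13-fold higher, but its log2 bound of 1.09 was 0.040 when the floor was at percentile 60. Col4a1 (0.70), Col4a2 (0.82), Col5a3 (0.70), Col24a1 (0.73), Col18a1 (0.78) and Col5a1 (0.55) were above 0 short of 2-fold, and Col4a6 (-0.98), Col22a1 (-0.72) and Col8a1 (-0.66) below it. In all 20 of 30 lay above 0, where 5963 of 11947 genes did. The collagen median was 0.15, beside -0.0012 over all genes, and ran from 0.034 to 0.20 over the alternatives.

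In normal medium 1 of 30 collagen genes, Col15a1, was higher at day 6 than at day 3 and 0 were lower, where 0.741% of 11736 genes were higher and 0.741% lower (1.48% in either direction). Col15a1 was 2.06-fold higher, which rests on its day 3 array. Col5a3 (0.67) and Col24a1 (0.68) had about the same day difference here as in osteogenic medium. By their brightest probe sets all 6 measured network genes lay above 0 (0.11 to 0.34). Second probe sets of Col4a5 and Col8a1 gave -0.096 and -0.0044. The 4 measured beaded filament genes lay below 0, as did 52.3% of all measured genes. The collagen median was -0.053, beside -0.015 over all genes, and ran from -0.053 to 0.098 over the alternatives, so that its sign changed. By limma with the same adjustment, 0 of 12503 genes (0%) had an adjusted p under 0.05 for the day, 919 had an unadjusted p under 0.05, or 607 with each gene's own variance, and the lowest adjusted p of a collagen gene was 0.674.

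**Figure D4:**
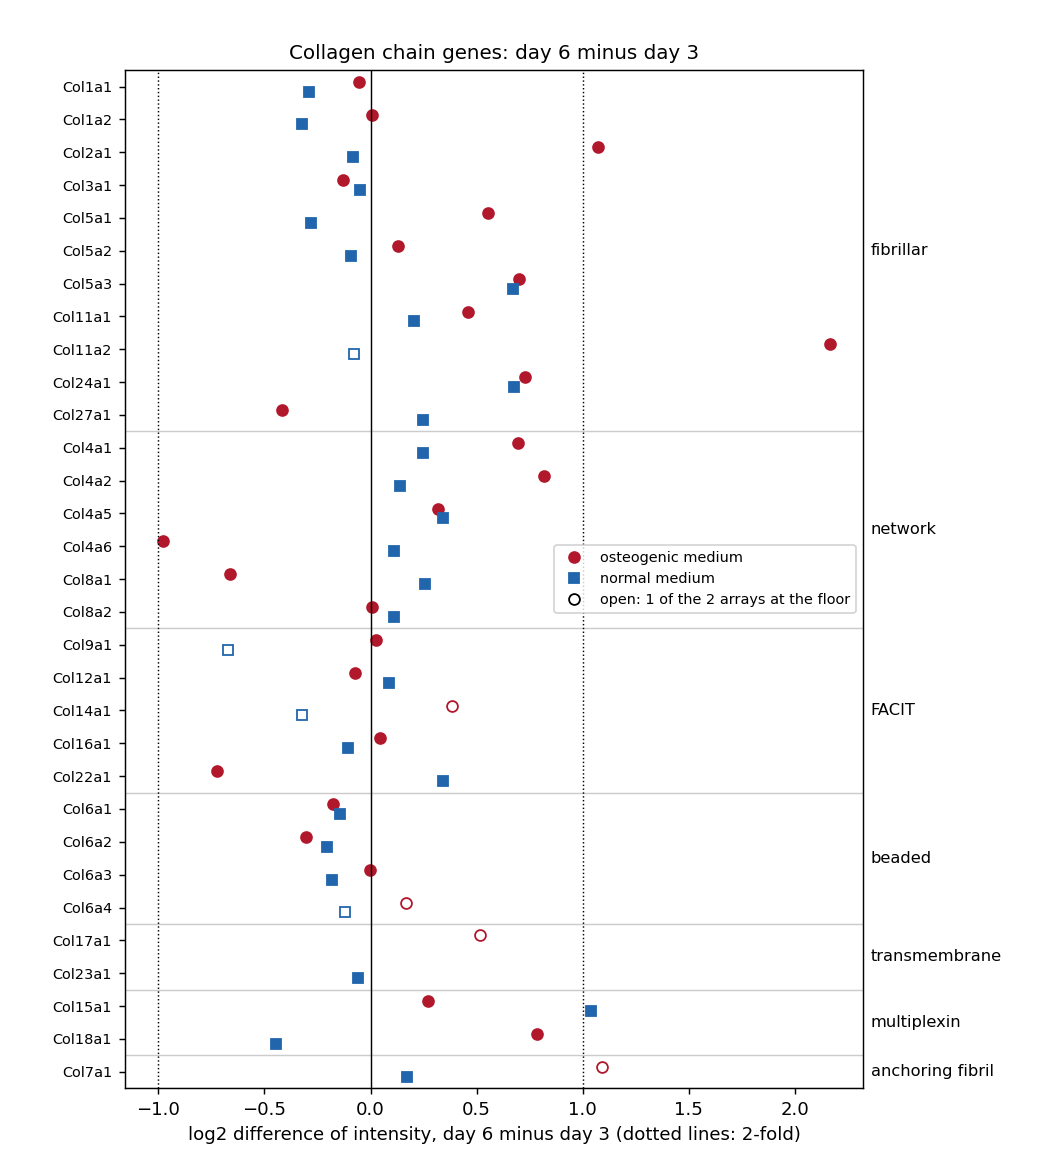
Log2 difference of intensity, day 6 minus day 3, in osteogenic medium (circles) and normal medium (squares) for the collagen genes above the floor on at least 1 array, grouped by class; dotted lines mark 2-fold and open symbols are bounds. Col11a2, Col2a1 and Col7a1 pass the upper line in osteogenic medium and Col15a1 in normal medium.

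The medium difference itself changed by 2-fold or more between days for 5 of 31 collagen genes, where 7.42% of 12503 genes did so, 4.42% upward and 3% downward. The signed difference was greater at day 6 for Col11a2 (by 2.24), Col18a1 (by 1.23) and Col2a1 (by 1.15). It was lower at day 6 for Col4a6 (-1.09) and Col22a1 (-1.06). Col4a6 had -0.90 at day 6 and 0.19 at day 3, and Col22a1 had -0.84 and 0.22. Both day 3 values were below the probe error of 0.30, so they do not show a change of sign. The second probe set of Col4a6 had 0.65 at day 3. For Col22a1, which is dim, the change was -0.033 with the floor at percentile 60 and -0.35 with averaged probe sets. With averaged probe sets the change of Col18a1 was 0.94, short of 2-fold. These values share all their arrays with the comparisons above and add no independent support. No test of the change is possible with 1 array per group, since it uses the last degree of freedom.

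Genes that modify, export, process, bind or degrade collagen were counted in the same way. Over all measured genes 4.18% were higher and 2.78% lower at day 6, and 1.99% and 1.59% at day 3. With lists this short each count rests on single genes. In the list of hydroxylases, glycosyltransferases and chaperones 1 of 17 measured genes was higher at day 6, P4ha2, a catalytic subunit of prolyl 4-hydroxylase, with 2329 in osteogenic against 919 in normal medium. At day 3 it had 1215 in osteogenic against 982 in normal medium, and 0 of 17 passed 2-fold. The list medians were -0.19 at day 6 and -0.18 at day 3. Serpinh1, the collagen chaperone HSP47, had 32990 in osteogenic against 28331 in normal medium at day 6 and 31201 in osteogenic against 28919 in normal medium at day 3.

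In the export list 1 of 10 measured genes was lower at day 3, Creb3l1, a transcription factor that drives Col1a1 in osteoblasts, with 1777 in osteogenic against 3691 in normal medium. At day 6 it had 2429 in osteogenic against 2786 in normal medium, a difference of -0.20, and 0 of 10 passed 2-fold. Of 9 processing and cross-linking genes, Pcolce2, an enhancer of procollagen C-proteinase, and Loxl1 were lower at day 6 and Loxl1 at day 3. Loxl1, an oxidase that cross-links elastin and collagen, had 1349 in osteogenic against 4456 in normal medium at day 6, and 1512 in osteogenic against 3664 in normal medium at day 3. Pcolce2 had 102 in osteogenic against 360 in normal medium at day 6, and 638 in osteogenic against 576 in normal medium at day 3.

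Of the collagen receptors 0 of 7 measured at day 6 and 0 of 6 measured at day 3 passed 2-fold, with medians of -0.013 and -0.15. Among 6 measured collagenases and related proteases, Mmp9 and Mmp16 were lower at day 6 and 0 passed 2-fold at day 3. Mmp9 had 198 in osteogenic against 415 in normal medium at day 6, and Mmp16 had 112 in osteogenic against 231 in normal medium. Over these 5 lists the medians lay between -0.20 and -0.013 on both days.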

How the data were processed

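Total RNA of 4 MC3T3-E1 cultures was hybridised to Affymetrix Mouse Genome 430 2.0 arrays, per the series' design text and the labels' protocols. The authors deposited 1 linear intensity per probe set and array, without detection calls. Each array's trimmed mean, without the lowest and highest 2%, was 500, so the deposited intensities had been scaled. The summary method is not given in the sources used here. Array brightness has no counting depth, and the number of arrays limits the precision.

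The table held 45101 probe sets, 64 of them controls. GEO's annotation gave 1 symbol to 34945, several to 932 and none to 9160, and those with several or none were not used. All 82 collagen probe sets matched RefSeq (GRCm38.p6) by Entrez ID. Arrays were shifted to a common 75th percentile (factors 0.988 to 1.02), floored at the pooled 50th percentile and logged to base 2. The probe set with the highest mean stood for a gene. The additive fit used limma 3.58.1 in R 4.3.3, over genes above the floor on any array, and other steps Python 3.11.15. The steps were tested on simulated data.

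Every collagen gene past 2-fold between 2 arrays, with Col1a1, Col1a2 and Col3a1, was to be given on all arrays. Other members were named where a class or partner turned on them, which was settled after their values were seen. From the lists of related genes those past 2-fold between media were named, with Serpinh1 added after its values were seen. The members, classes and lists were chosen with earlier results of these data known. Alternatives were 3 other scalings, a floor at percentile 40 or 60, a pseudocount of 50, neither floor nor filter, a stricter filter, averaged probe sets and a choice of probe set by suffix.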

Additional observations from a re-analysis of the deposited data

Results flagged for a closer look

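The second probe set of Col4a6 differed between media in opposite directions on the 2 days, by more than 2 times the estimated probe error each time. Its log2 difference, osteogenic minus normal medium, was -1.15 at day 6 and 0.65 at day 3. The same arrays read by day gave -1.21 in osteogenic medium and 0.59 in normal medium, day 6 minus day 3. The brightest probe set of the gene had -0.90 and 0.19 for the media. With 1 array per group these differences between days and between media were not tested.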

How the results depend on the processing

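Precision is limited by 1 array per group and, for Col11a2, Col24a1, Col7a1 and Col22a1, by signal near the floor. Of 187 values of single genes over 10 alternatives 0 changed sign, and 11 of 19 calls past 2-fold held in every alternative that gave a value. These 19 were picked for being past 2-fold, so a change of sign was unlikely from the outset. For genes with 1 probe set, such as Col2a1, averaging probe sets or choosing by suffix cannot alter the value. The counts are therefore no independent support. With neither floor nor filter, where dim noise enters, the higher counts were 10 at day 6, 8 at day 3, 7 between days in osteogenic medium, 6 between days in normal medium and 10 for the change, and the lower counts were 3 at day 3, 3 between days in normal medium and 5 for the change. In the counts for the change, higher and lower refer to the signed medium difference at day 6 minus that at day 3. The floor at the 40th percentile gave 6 higher for the change, 2 lower at day 3 and 1 lower between days in normal medium, and that at the 60th gave 1 lower for the change. With the pseudocount 1 was higher at day 3, 1 lower at day 6 and 0 lower for the change. Averaged probe sets gave 1 lower between days in osteogenic medium and 1 lower for the change. The count of collagen genes higher in osteogenic medium at day 6, 4 in the main processing, was 6 under the lower alternative floor. It was 3 under the higher alternative floor, the pseudocount, the stricter filter, quantile normalization and a shift to a common median. Averaging probe sets, choosing by suffix and leaving out further scaling kept it at 4. Not all shifts in the other counts are listed. The causes were not tested beyond how each setting is built. The limma count stayed at 0 in every setting, with lowest adjusted p from 0.0756 to 0.664 for the medium. The labels give no replicate numbers to pair by, and the additive model sets the media against each other within days.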

Other observations

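Over the 24 collagen genes above the floor on all arrays, the osteogenic day 3 array held the lowest intensity for 8 (33.3%) and the highest for 2 (8.33%). Of 10250 such genes of the whole array it was lowest for 24.8% and highest for 28.0%. Those 8 were Col4a1, Col4a2, Col4a5, Col5a1, Col5a3, Col8a2, Col11a1 and Col16a1. The osteogenic day 6 array was also lowest for 8, near its share of all genes (33.3%, beside 30.6%), among them Col6a1, Col6a2, Col6a3, Col8a1 and Col12a1. Col1a2 has 3 probe sets, of which the dimmest had a log2 medium difference of -0.68 at day 6 and 0.43 at day 3, beside -0.097 and -0.24 for the next brightest.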
